A study of Mus musculus with 28 samples.

Results

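The 38 genes described here carry glucose into the cell, break it down to lactate and export the lactate. Others hold pyruvate back from the citric acid cycle, store glucose as glycogen or release it from glycogen. They were taken by gene symbol, by a rule that uses no measured value, but the list was chosen with earlier results of these data known. All 38 were found among the 55536 genes counted in every library. RNA-seq was done on 28 libraries in 7 groups of 4. The 3 mouse lines were all labelled WT and all grown at 37 °C in DMEM with fetal bovine serum and penicillin-streptomycin: EO771 breast cancer cells, C2C12 myotubes (muscle fibres formed from a myoblast line) and MLg lung fibroblasts. Each line was sequenced alone (EO771 alone, C2C12 alone, MLg alone) and from direct co-culture, in which EO771 cells were kept on the host cells. RNA of each partner was sequenced apart, giving EO771 with C2C12, C2C12 with EO771, EO771 with MLg, and MLg with EO771. The series title names hypoxia in connection with an antiproliferative effect of muscle cells on cancer cells. How long co-culture lasted, how partners were separated and what the R numbers of the libraries stand for are all left unstated in the labels. Whether libraries of a group came from separate cultures is likewise unstated, and p-values then reflect only the variation among these samples, which could be technical. A value after ± is the SD over 4 libraries for CPM and shares, and the standard error for log2 fold changes.

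Glycolysis turns glucose into pyruvate: SLC2A transporters bring glucose in, hexokinase traps it as glucose-6-phosphate, phosphofructokinase commits it to breakdown, and the lower enzymes from aldolase to pyruvate kinase yield ATP and pyruvate. Lactate dehydrogenase A reduces pyruvate to lactate, which leaves through SLC16A3 (MCT4), while pyruvate dehydrogenase kinases switch off the entry of pyruvate into the citric acid cycle. In low oxygen the transcription factor HIF-1 is known to induce many of these genes, and skeletal muscle and many tumour cells are known for high glycolytic capacity and, in muscle, for their own isoforms such as Eno3, Pgam2 and Pygm.

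Library totals ranged from 27612567 to 96491326 counts, and values are given as CPM, the field's usual count scaled to a library's total, so 3 counts correspond to 0.0311 to 0.109 CPM. Odd counts were missing from 5 libraries, namely R3-1, R5-1 and R6-1 of EO771 with C2C12 and 2 of MLg with EO771 (R5-1, R6-1). The deposited names of the R5-1 and R5-2 tables of EO771 with C2C12 are crossed against the sample titles; libraries are called here by title, and which of this pair is which stays uncertain wherever either is named. In the remaining 23 libraries 41.6% to 44.8% of the counts above 0 were odd. EO771 alone had little of the epithelial marker set: Krt8 at 93.3 CPM and Ovol1 at 7.16 CPM, the other 9 under 1 CPM, with Cdh1 at 0.0562 CPM and Krt19 and Cldn4 at 0. Myotube markers summed to 2954 CPM (435 to 5873) in C2C12 alone, lowest in the R3 libraries, and the 14 fibroblast markers were as high in C2C12 alone (32644 CPM) as in MLg alone (31657 CPM). RNA of the partner was present in every co-cultured group. Judged by the median of partner-specific genes (at least 20 CPM in the partner, under 0.1 CPM in each library of the receiving line alone), the partner's share was 0.891% ± 0.330 (SD, n = 4) in EO771 with C2C12 and 1.53% ± 0.382 in EO771 with MLg. In the hosts it was 4.15% ± 0.777 in C2C12 with EO771 and 8.31% ± 3.20 in MLg with EO771. Measured on 6 myotube markers instead, the share in EO771 with C2C12 was 8.74% (4.00% to 17.7%). Myotube markers summed to 13.3 CPM (12.2 to 14.3) in EO771 alone and 240.3 CPM (113 to 450) in EO771 with C2C12, where 18 of 18 tested were called higher. Fibroblast markers summed to 203 CPM in EO771 alone, 452 CPM with C2C12 and 553 CPM with MLg. In such bulk RNA, fewer cells of a type and less RNA per cell cannot be told apart.

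Many of the members share short letters at their promoters. The letters ACGTG and GCGTG, the core to which HIF proteins are known to bind, were searched on both strands of the 300 bases from 250 before to 50 after each RefSeq start (GRCm38.p6). CACGTG is its own reverse complement and therefore counts on each strand. Of the 36 members with a promoter entry (all but Slc2a3 and Slc2a4), 29 (80.6%, exact 95% binomial interval 64.0% to 91.8%) held at least 1 match, against 46.7% of all 27025 genes with an entry. Counted by window, 39 of 55 member windows (70.9%) and 43.8% of all 32851 windows of this length held a match. The genes of this background were not matched to the members for expression or base composition. In the order of the response of EO771 to C2C12, matches were found in 20 of the 25 members that rose, in both that fell and in 6 of the 8 not called. Gpi1, Tpi1, Pgam2, Gys1 and Gbe1 rose with no match in this window. A match is a description of the letters, not of a site that is bound.

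Stretches of 70 bases before the start of 9 members are printed 5′ to 3′ on the strand of the gene, with matches on either strand in capitals, from RefSeq promoters of GRCm38.p6. The first 6 belong to members at successive steps that rose in EO771 with C2C12 and show that the letters differ in number and orientation: Slc2a1 (chr4:119108639-119108708, plus strand), Pfkp (chr13:6648780-6648849, minus strand), Pgk1 (chrX:106186927-106186996, plus strand), Ldha (chr7:46845729-46845798, plus strand), Slc16a3 (chr11:120948983-120949052, plus strand) and Pdk1 (chr2:71873114-71873183, plus strand). The last 3 are shown because the letters were also there in members that did not rise: Gapdh (chr6:125165785-125165854, minus strand) and Slc16a1 (chr3:104638450-104638519, plus strand), which were not called, and Pfkfb3 (chr2:11502106-11502175, minus strand), which fell. None of the 9 stretches overlaps an exon of GENCODE M21; those of Gapdh, Ldha, Slc16a3 and Pfkfb3 lie in introns of longer transcripts of the same gene, and the others lie upstream of the gene's annotated start.
Slc2a1: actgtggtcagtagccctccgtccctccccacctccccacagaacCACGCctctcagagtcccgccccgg
Pfkp: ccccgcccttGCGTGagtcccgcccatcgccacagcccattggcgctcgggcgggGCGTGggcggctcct
Pgk1: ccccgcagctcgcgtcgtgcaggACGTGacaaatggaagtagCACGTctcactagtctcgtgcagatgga
Ldha: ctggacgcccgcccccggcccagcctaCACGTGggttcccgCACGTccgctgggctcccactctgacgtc
Slc16a3: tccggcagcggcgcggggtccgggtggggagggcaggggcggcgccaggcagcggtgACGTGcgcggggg
Pdk1: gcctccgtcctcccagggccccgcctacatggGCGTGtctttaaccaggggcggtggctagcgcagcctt
Gapdh: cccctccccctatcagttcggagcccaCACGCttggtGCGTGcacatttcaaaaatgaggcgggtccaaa
Slc16a1: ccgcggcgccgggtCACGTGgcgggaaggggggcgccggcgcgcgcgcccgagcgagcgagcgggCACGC
Pfkfb3: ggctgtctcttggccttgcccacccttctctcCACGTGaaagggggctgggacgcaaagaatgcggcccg

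The palindrome CACGTG stands in Ldha, Slc16a1 and Pfkfb3, of which the first rose, the next was not called and the last fell in EO771 with C2C12. Pgk1 carries the letters once on each strand, Pfkp carries GCGTG at both positions on the strand of the gene, and Slc2a1, Slc16a3 and Pdk1 carry a single match each in these 70 bases.

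**Figure D1:**
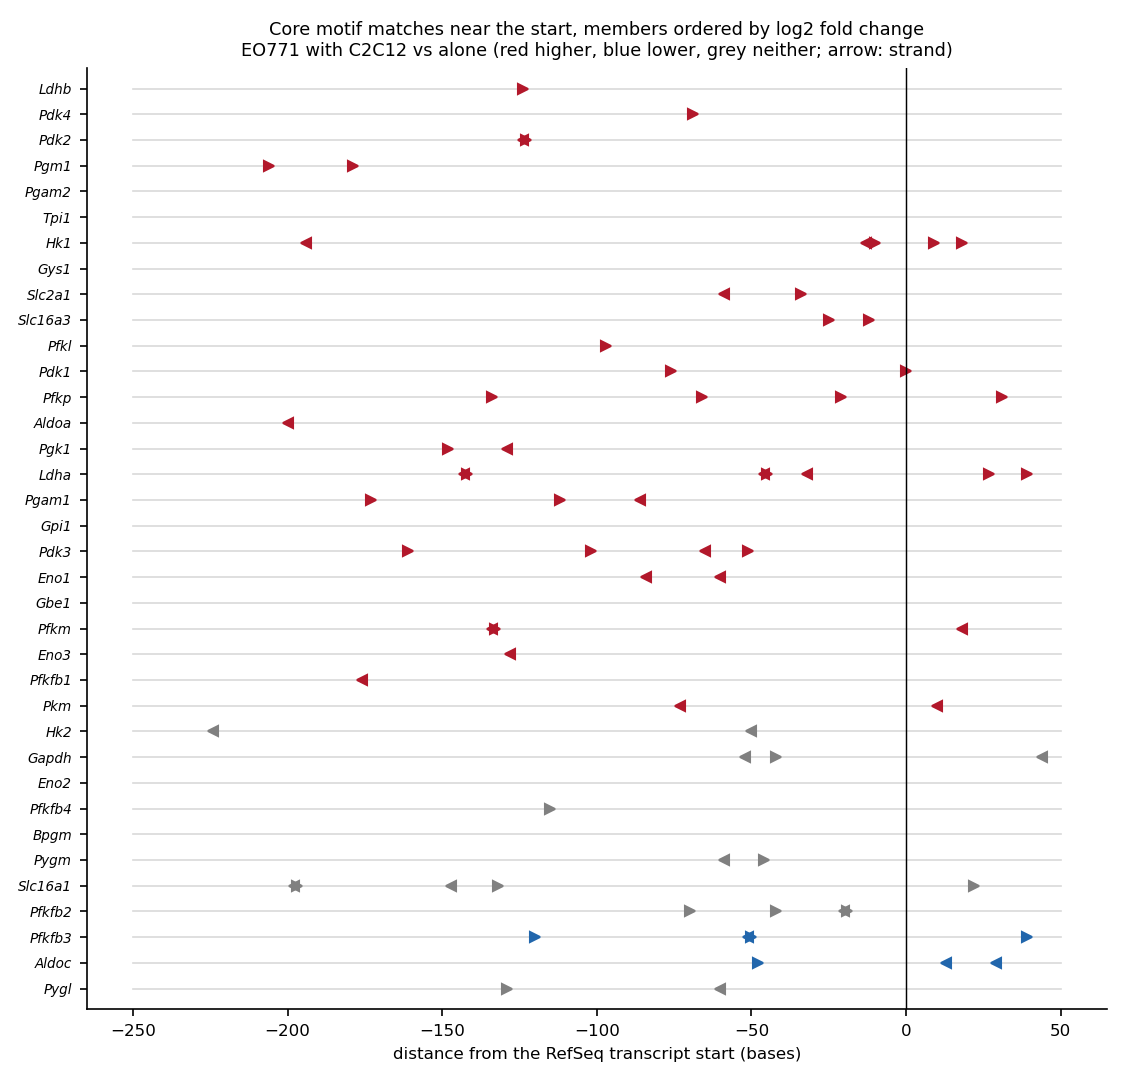
Positions of ACGTG and GCGTG relative to the RefSeq start (x axis, bases, from 250 before to 50 after) in the promoter window with the most matches of 36 members, ordered by log2 fold change in EO771 with C2C12 against EO771 alone (y axis); arrows point along the strand of the match, and overlapping arrows mark the palindrome. Matches stand at both ends of the order: 20 of 25 members that rose, 2 of 2 that fell and 6 of 8 not called have at least 1.

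EO771 cells taken from C2C12 myotubes carried more mRNA for most steps from glucose uptake to lactate export. The 38 genes together made up 2.56% of counts (2.40% to 2.64%) in EO771 with C2C12 and 1.54% (1.49% to 1.58%) in EO771 alone, so the ranges of the 2 groups were apart. Of 37 members tested, 26 rose, 2 fell and 9 were not called (edgeR quasi-likelihood test, Benjamini-Hochberg adjusted p under 0.05 over all 15794 genes tested, as for every call in the text). Over all genes, 18.7% were called higher and 14.3% lower. The median log2 fold change of the members was 0.72, and that of all genes tested was 0.0006. By role, 2 of 3 glucose transporters, 2 of 3 genes of the hexokinase and isomerase steps, all 3 phosphofructokinase subunits, 8 of 12 genes from aldolase to pyruvate kinase, 3 of 4 lactate genes, 4 of 4 pyruvate dehydrogenase kinases and 3 of 4 tested glycogen genes rose. Among the 4 bifunctional enzymes that set fructose-2,6-bisphosphate, 1 rose and 1 fell. Of the 26, 5 were under 3 CPM in every EO771 library (Slc2a4, Pgam2, Ldhb, Pdk2 and Pdk4) and are treated apart. Without the 3 even-count libraries, 1 library of EO771 with C2C12 remained, taken to vary like the other groups, and 17 members were called higher. The 9 that no longer passed were Slc2a4, Pfkm, Pfkfb1, Pgam2, Eno3, Pkm, Pdk2, Pdk3 and Gbe1.

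**Figure D2:**
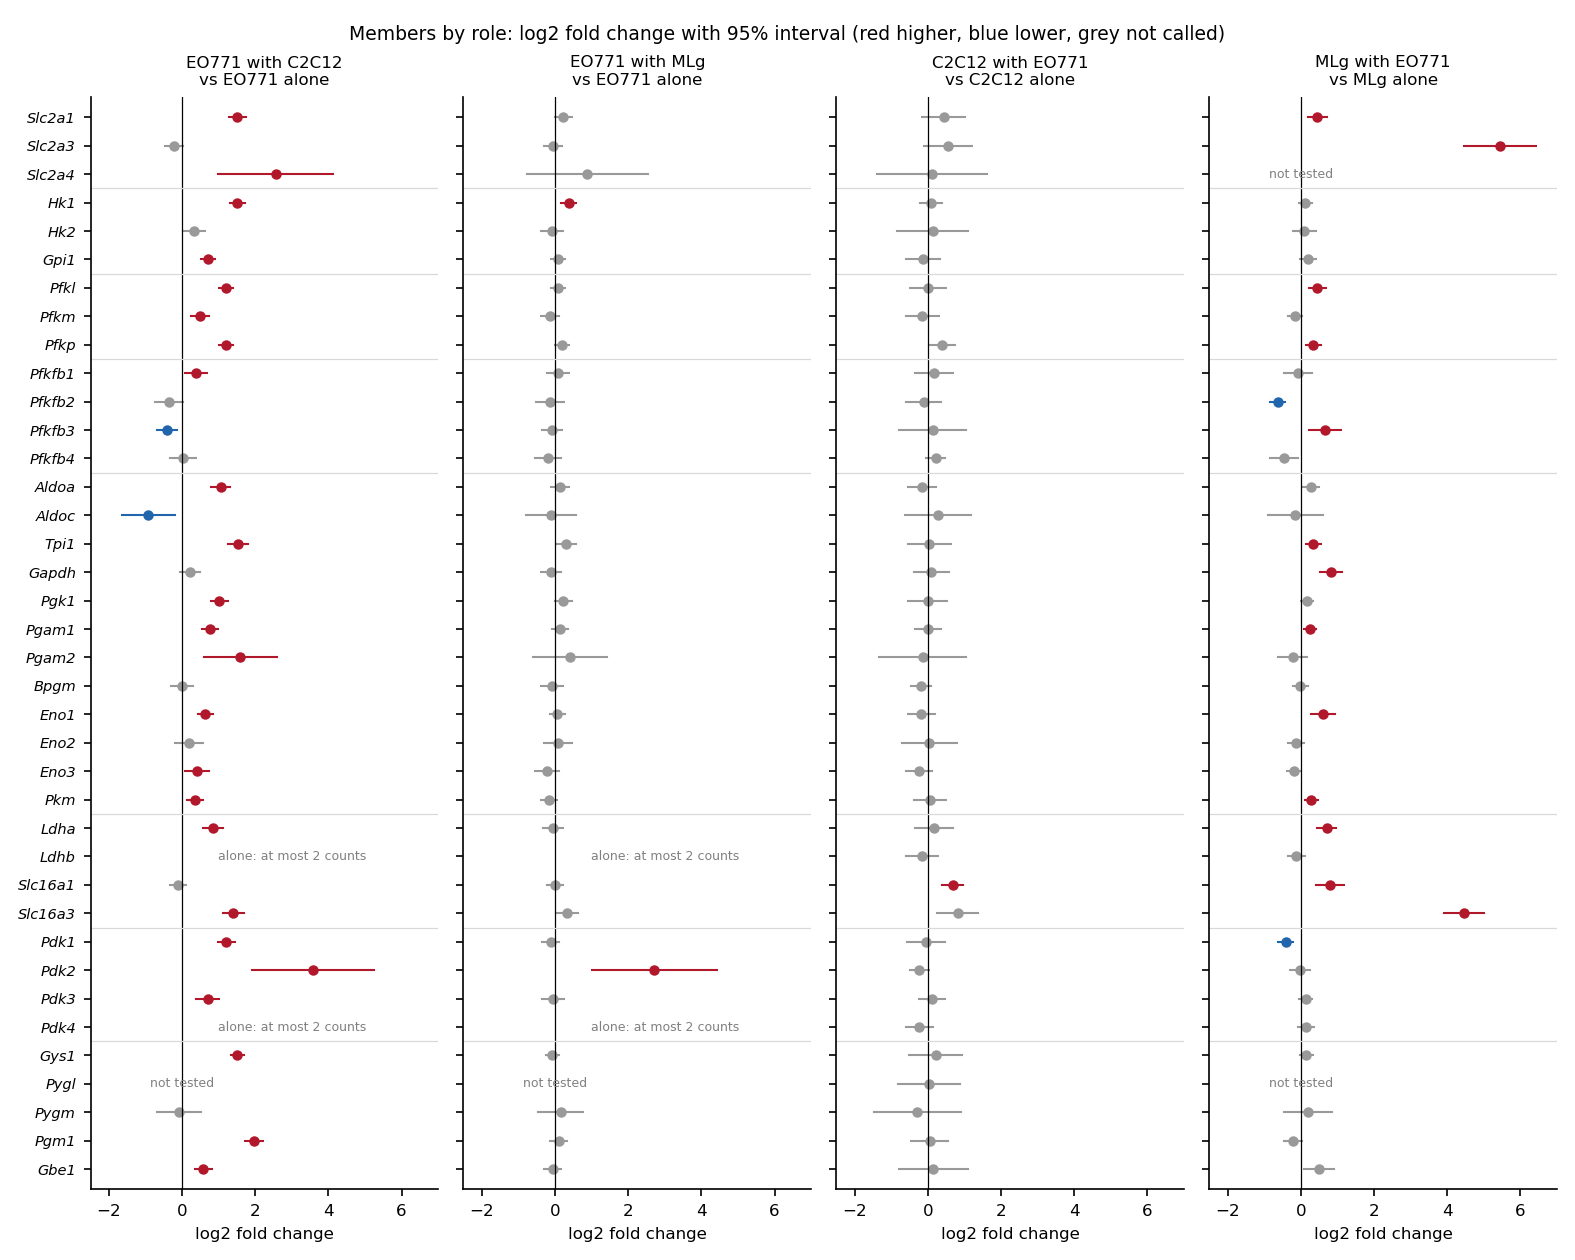
Log2 fold change (x axis) of the 38 members (y axis, by role) in 4 comparisons of a co-cultured line with the same line alone; bars are 95% intervals, red was called higher, blue lower and grey not called, and Ldhb and Pdk4, with at most 2 counts in EO771 alone, are written rather than plotted in the EO771 panels. Red points fill most roles in EO771 with C2C12 (26 of 37 tested), whereas 4 of 37 were called in EO771 with MLg, 1 of 38 in C2C12 with EO771, and 13 higher and 2 lower of 36 in MLg with EO771.

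Of the glucose transporters that EO771 expresses above a trace, Slc2a1 rose and Slc2a3 was not called. Slc2a1 (ENSMUSG00000028645, chr4:119108711-119137983) encodes GLUT1, the basal glucose transporter of most cells. Slc2a1 measured 143, 176, 183 and 176 CPM in EO771 alone and 453, 531, 550.1 and 492 CPM in EO771 with C2C12. With MLg, Slc2a1 stood at 189, 211, 172 and 216 CPM. All 4 libraries of EO771 with C2C12 lay above every other EO771 library, and Slc2a1 was 2.84-fold higher than alone (log2 fold change 1.51 ± 0.11, adjusted p = 2.3e-08). Slc2a3 encodes the high-affinity transporter GLUT3. Slc2a3 measured 49.8, 67.3, 52.2 and 53.0 CPM in EO771 alone and 52.0, 52.3, 51.2 and 45.5 CPM in EO771 with C2C12. With MLg, Slc2a3 stood at 56.3, 59.6, 46.7 and 50.1 CPM. The 3 groups overlapped for Slc2a3, which was not called (log2 fold change -0.22 ± 0.11, adjusted p = 0.157, 95% interval -0.46 to 0.022). Per kb of exon, Slc2a1 made up 86.2% ± 1.64 (SD, n = 4) of the Slc2a1, Slc2a3 and Slc2a4 signal in EO771 alone and 95.3% ± 0.406 with C2C12.

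At the trapping step, Hk1 rose and Hk2 was not called. Hk1 (ENSMUSG00000037012, chr10:62268855-62379908) encodes the hexokinase of most tissues. Hk1 measured 184, 209.9, 206 and 194 CPM in EO771 alone and 527, 572, 640.0 and 649.5 CPM in EO771 with C2C12. With MLg, Hk1 stood at 262, 258, 267 and 232 CPM. Every library with C2C12 exceeded every other EO771 library, a 2.86-fold rise (log2 fold change 1.52 ± 0.10, adjusted p = 5.35e-09). Hk2 encodes the insulin- and hypoxia-responsive hexokinase of muscle and tumours. Hk2 measured 196, 237, 238 and 206 CPM in EO771 alone and 285, 296, 277 and 297 CPM in EO771 with C2C12. With MLg, Hk2 stood at 182, 280.2, 184 and 174 CPM. Hk2 with C2C12 lay above EO771 alone in each library but overlapped EO771 with MLg, whose R5-1 library stood at 280.2 CPM against 174 to 184 CPM in the other 3. Its difference from EO771 alone missed the threshold (log2 fold change 0.32 ± 0.14, adjusted p = 0.0861) and passed it when EO771 with MLg was left out of the fit (adjusted p = 0.00665), with no filter on low counts (adjusted p = 0.0319) and with the R number as a block (adjusted p = 0.0411). Hk1 thereby went from 38.8% ± 0.992 to 59.0% ± 2.53 of the hexokinase signal per kb. Gpi1, glucose-6-phosphate isomerase, rose from 378 ± 14.1 to 655 ± 62.1 CPM (log2 fold change 0.72 ± 0.092, adjusted p = 1.18e-05).

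All 3 phosphofructokinase subunits, whose tetramers catalyse the committed step, rose in EO771 with C2C12. Pfkl (ENSMUSG00000020277, chr10:77986947-78010083) encodes the liver-type subunit. Pfkl measured 230.4, 246, 231 and 237 CPM in EO771 alone and 557, 601, 609.8 and 530.1 CPM in EO771 with C2C12. With MLg, Pfkl stood at 256, 224, 266 and 243 CPM. Pfkp (ENSMUSG00000021196, chr13:6579768-6648777) encodes the platelet-type subunit. Pfkp measured 368, 409, 374 and 388 CPM in EO771 alone and 884, 899, 916 and 1014 CPM in EO771 with C2C12. With MLg, Pfkp stood at 416, 454, 447 and 417 CPM. Both genes were higher in each library with C2C12 than in any other EO771 library. Pfkl rose 2.31-fold (log2 fold change 1.21 ± 0.09, adjusted p = 2.3e-08) and Pfkp rose 2.29-fold (log2 fold change 1.20 ± 0.092, adjusted p = 3.39e-08). The muscle-type Pfkm, the least abundant of the 3 per kb of exon, rose less, from 33.9 ± 1.88 to 50.3 ± 10.6 CPM (log2 fold change 0.50 ± 0.12, adjusted p = 0.00303). The call of Pfkm was lost with C2C12 counts subtracted at the myotube-marker share (log2 fold change 0.19, adjusted p = 0.467) and without the even-count libraries (0.29, adjusted p = 0.319). The PFKFB enzymes make and remove fructose-2,6-bisphosphate, the activator of phosphofructokinase. Pfkfb3, the isoform with the strongest kinase activity, fell from 59.7 ± 9.01 to 47.0 ± 3.09 CPM (log2 fold change -0.42 ± 0.13, adjusted p = 0.0187), with no overlap between these groups. The call of Pfkfb3 was lost without EO771 alone R5-1 (adjusted p = 0.0838) or EO771 with C2C12 R3-1 (adjusted p = 0.061). Pfkfb1 rose from 5.34 to 7.29 CPM (log2 fold change 0.38 ± 0.14, adjusted p = 0.0482), a call lost when any 1 of the 8 libraries compared was left out (adjusted p = 0.0738 to 0.136). Pfkfb2 and Pfkfb4 were not called. Pfkfb3 took 69.2% ± 3.38 of the signal of the 4 isoforms per kb in EO771 alone and 60.9% ± 3.83 with C2C12.

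From aldolase to pyruvate kinase, the largest rises among abundant genes were at Tpi1, Aldoa and Pgk1. Aldoa (ENSMUSG00000030695, chr7:126795234-126800751) encodes the main aldolase of muscle and tumours. Aldoa measured 651, 578, 665 and 703 CPM in EO771 alone and 1293, 1379.7, 1433 and 1584 CPM in EO771 with C2C12. With MLg, Aldoa stood at 763, 517, 832 and 739 CPM. Tpi1 (ENSMUSG00000023456, chr6:124810586-124814296) encodes the enzyme that interconverts the triose phosphates. Tpi1 measured 846, 662, 781 and 869 CPM in EO771 alone and 2191, 2377, 2647 and 2362 CPM in EO771 with C2C12. With MLg, Tpi1 stood at 1065, 765, 1159 and 888 CPM. Pgk1 (ENSMUSG00000062070, chrX:106187100-106203699) encodes the first ATP-yielding enzyme of the route. Pgk1 measured 285, 243, 264 and 267 CPM in EO771 alone and 556, 563, 539 and 606 CPM in EO771 with C2C12. With MLg, Pgk1 stood at 345, 291, 342 and 256 CPM. In each of these 3 genes the libraries with C2C12 lay above all others, while those of EO771 with MLg overlapped EO771 alone. Tpi1 rose 2.88-fold (log2 fold change 1.53 ± 0.13, adjusted p = 1.17e-07). The rise was 2.08-fold for Aldoa (log2 fold change 1.06 ± 0.12, adjusted p = 3.75e-06) and 2.03-fold for Pgk1 (log2 fold change 1.02 ± 0.11, adjusted p = 1.2e-06).

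Smaller rises were measured in Pgam1, phosphoglycerate mutase (log2 fold change 0.77 ± 0.11, adjusted p = 2.38e-05), and in Eno1, the ubiquitous enolase (log2 fold change 0.64 ± 0.10, adjusted p = 9.22e-05). Pkm, pyruvate kinase, rose too (log2 fold change 0.36 ± 0.11, adjusted p = 0.0161), whose call was lost without EO771 alone R3-1 (adjusted p = 0.0534). Gapdh, the most abundant member per kb of exon, went from 5189 ± 92.4 to 6356 ± 405 CPM and was not called (log2 fold change 0.22 ± 0.13, adjusted p = 0.209). Its libraries did not overlap, and it passed with EO771 with MLg left out of the fit (adjusted p = 0.045). The neuronal Eno2 and Bpgm, which makes 2,3-bisphosphoglycerate, were not called (log2 fold changes 0.20 and 0.001). Aldoc, the brain aldolase, fell from 1.51 to 0.848 CPM (log2 fold change -0.92 ± 0.34, adjusted p = 0.0452), with overlapping libraries. The call of Aldoc was lost without EO771 alone R3-2 or R5-1, or EO771 with C2C12 R3-1, R5-1 or R6-1 (adjusted p = 0.059 to 0.194). Gapdh, Pgk1, Pgam1, Tpi1, Pkm, Ldha, Aldoa and Eno1 have processed pseudogenes or near-identical copies. Several members also overlap a gene on the other strand (Pfkp with Pitrm1, Pgm1 with Itgb3bp, Gys1 with Ruvbl2), so their counts are uncertain to that extent. The labels do not say whether counting used strand.

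The genes for lactate production and export rose in EO771 with C2C12, apart from Slc16a1. Slc16a3 (ENSMUSG00000025161, chr11:120948480-120960868) encodes the lactate exporter MCT4. Slc16a3 measured 278, 356, 402 and 385 CPM in EO771 alone and 909, 1063, 1112 and 877 CPM in EO771 with C2C12. With MLg, Slc16a3 stood at 401, 528, 388 and 449 CPM. The libraries with C2C12 were above all others and the rise was 2.65-fold (log2 fold change 1.41 ± 0.14, adjusted p = 7.4e-07). Ldha (ENSMUSG00000063229, chr7:46841475-46855627), the muscle-type lactate dehydrogenase subunit, rose 1.80-fold from 1785 ± 108 to 3389 ± 110.0 CPM (log2 fold change 0.85 ± 0.13, adjusted p = 5.29e-05). Slc16a1 encodes the bidirectional monocarboxylate transporter MCT1. Slc16a1 measured 390.3, 437, 484 and 422 CPM in EO771 alone and 412, 457, 412 and 413 CPM in EO771 with C2C12. With MLg, Slc16a1 stood at 508, 399, 436 and 390.1 CPM. All 3 groups overlapped for Slc16a1, and the change from EO771 alone was not called (log2 fold change -0.11 ± 0.11, adjusted p = 0.476, 95% interval -0.33 to 0.12). The share of Slc16a3 in the Slc16a1 and Slc16a3 signal per kb was 40.4% ± 2.46 in EO771 alone and 65.9% ± 2.32 with C2C12, so the exporter became the larger of the pair.

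Kinases that inhibit pyruvate dehydrogenase rose as well. Pdk1 (ENSMUSG00000006494, chr2:71873224-71903858) encodes a pyruvate dehydrogenase kinase and is a known HIF-1 target. Pdk1 measured 64.4, 64.3, 67.6 and 65.2 CPM in EO771 alone and 155, 149, 156 and 174 CPM in EO771 with C2C12. With MLg, Pdk1 stood at 70.8, 51.0, 68.3 and 49.6 CPM. It was 2.30-fold higher with C2C12 than alone (log2 fold change 1.20 ± 0.11, adjusted p = 2.98e-07), with no library overlapping another group. Pdk3 rose from 36.3 ± 2.99 to 62.2 ± 4.64 CPM (log2 fold change 0.70 ± 0.15, adjusted p = 0.00134). Pdk1 made up 37.3% ± 2.23 of the signal of the 4 kinases per kb in EO771 alone and 45.2% ± 1.60 with C2C12.

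Of the glycogen synthesis genes, Pgm1 and Gys1 rose more than Gbe1. Pgm1 (ENSMUSG00000025791, chr4:99929414-99987294) encodes phosphoglucomutase, which links glucose-6-phosphate to glycogen. Pgm1 measured 40.1, 36.5, 40.9 and 42.4 CPM in EO771 alone and 150.1, 159.7, 170.0 and 177 CPM in EO771 with C2C12. With MLg, Pgm1 stood at 52.3, 34.2, 45.8 and 38 CPM. Gys1 (ENSMUSG00000003865, chr7:45434844-45456619) encodes the glycogen synthase of muscle and most tissues. Gys1 measured 94.3, 105, 87.7 and 98.0 CPM in EO771 alone and 266, 282, 304 and 307 CPM in EO771 with C2C12. With MLg, Gys1 stood at 90.3, 86.4, 89.4 and 96.5 CPM. Both were above every other EO771 library in all 4 libraries with C2C12. The rise of Pgm1 was 3.90-fold (log2 fold change 1.96 ± 0.12, adjusted p = 1.51e-09) and that of Gys1 2.85-fold (log2 fold change 1.51 ± 0.086, adjusted p = 1.01e-09). Gbe1, the branching enzyme, rose from 23.1 ± 1.53 to 36.3 ± 2.41 CPM (log2 fold change 0.58 ± 0.11, adjusted p = 0.000538), a call lost with all 28 libraries in the fit (adjusted p = 0.095) or without the even-count libraries (adjusted p = 0.0661). Of the phosphorylases that release glucose from glycogen, the muscle form Pygm was not called (log2 fold change -0.089 ± 0.29, adjusted p = 0.846). The liver form Pygl, at 0.0143 CPM in EO771 alone and 0 in both co-cultured EO771 groups, was not tested.

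**Figure D3:**
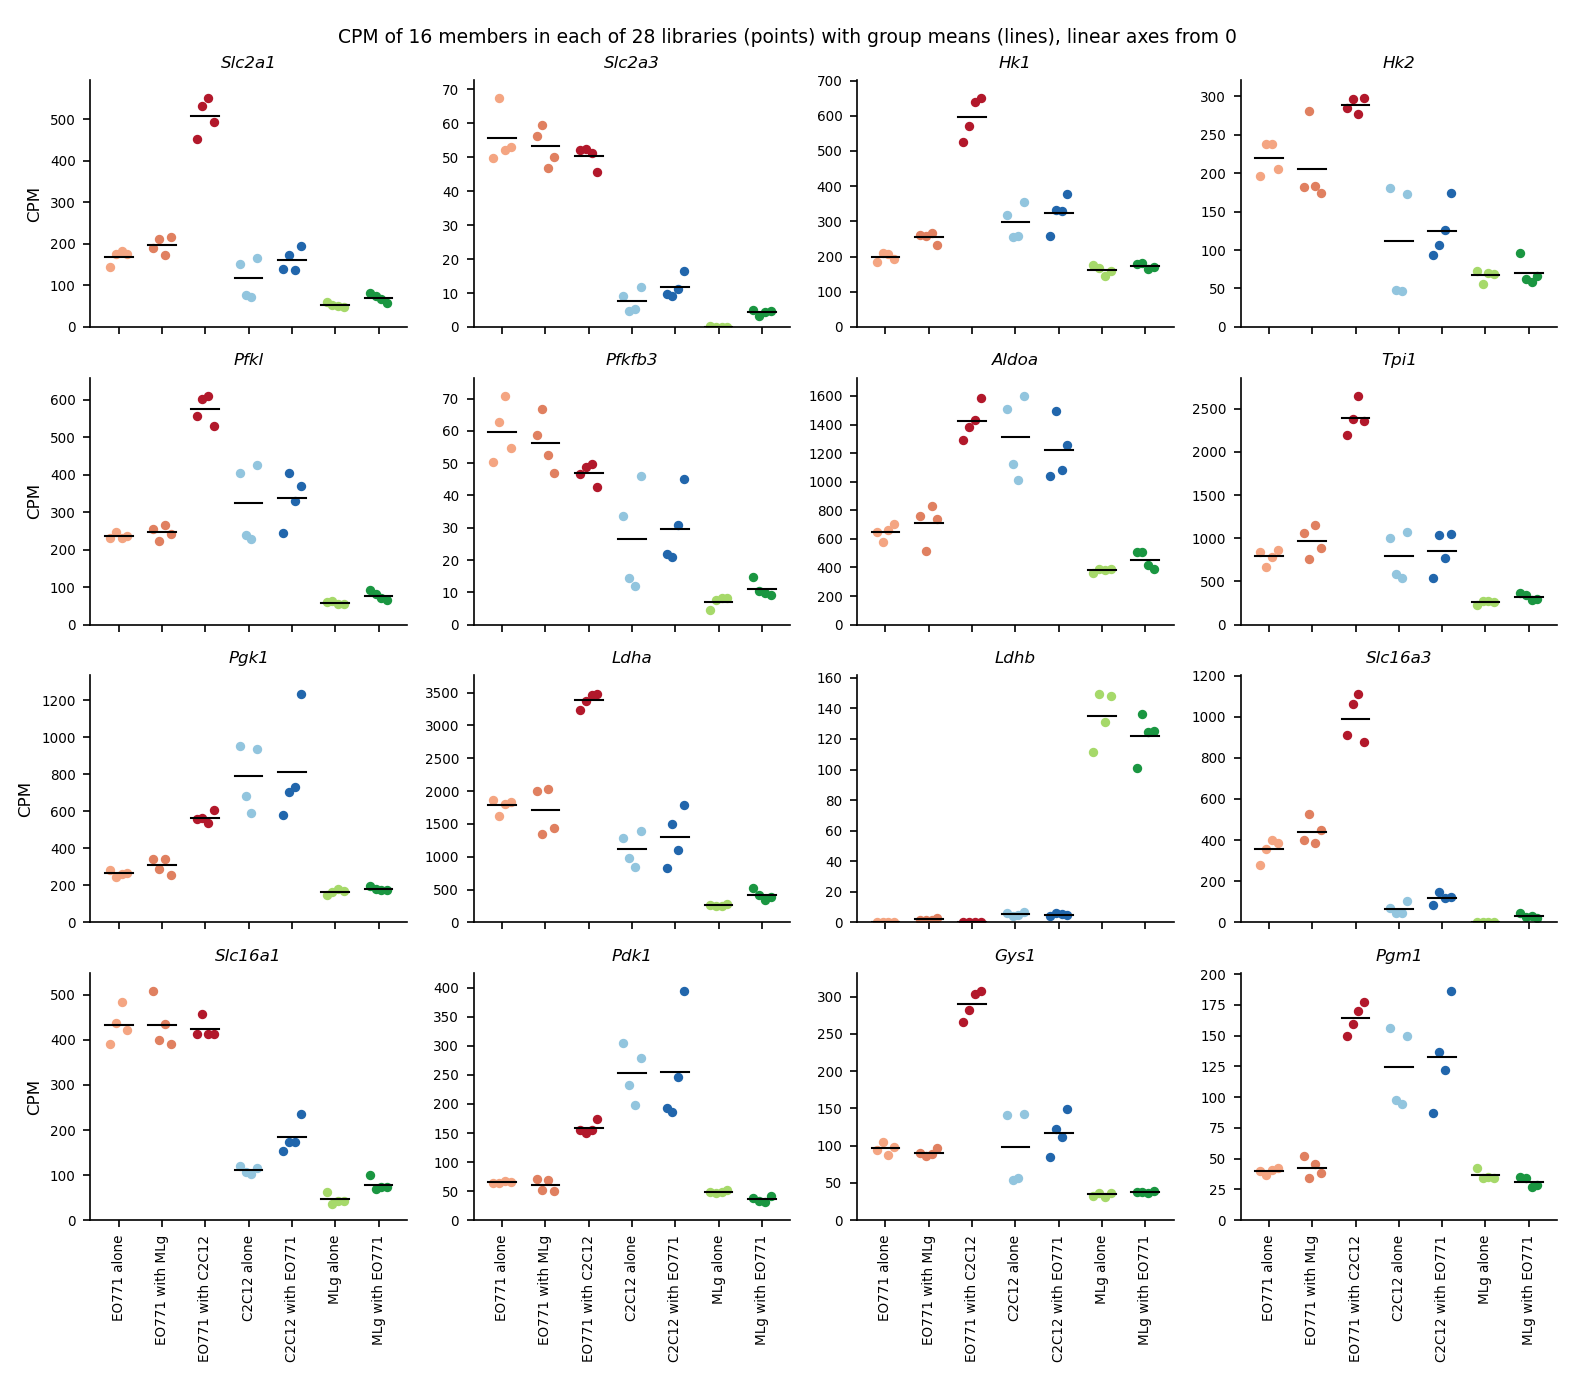
CPM (y axes, linear, from 0) of 16 members in each of the 28 libraries, by group (x axis); points are libraries and lines are group means. For Slc2a1, Hk1, Pfkl, Aldoa, Tpi1, Pgk1, Ldha, Slc16a3, Pdk1, Gys1 and Pgm1 the 4 points of EO771 with C2C12 lie above those of EO771 alone and of EO771 with MLg, whereas those of Slc2a3 and Slc16a1 overlap both.

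Isoform use within 10 families was compared as the share of 1 member in the family's CPM per kb of exon. Between EO771 alone and EO771 with C2C12, 6 of 10 shares differed in an exact two-sided permutation test, each at p = 0.0286, the smallest that 4 libraries against 4 can give (adjusted p = 0.0476 over the 10). Slc2a1, Hk1, Slc16a3, Pdk1 and Aldoa took more of their family, and Pfkfb3 took less. The change of Aldoa was small, from 99.79% to 99.95%. The shares of Pfkp, Pgam1, Eno1 and Ldha did not pass. Between EO771 with MLg and EO771 alone none of the 10 passed, the lowest adjusted p being 0.143 and the lowest unadjusted p 0.0286. Between the co-cultured EO771 groups, Slc2a1, Hk1, Slc16a3, Pdk1, Aldoa and Ldha differed in the same test (adjusted p = 0.0476 each). Ldha stood at 99.99% with C2C12 and 99.75% with MLg, and Aldoa at 99.95% and 99.82%. The shares were not corrected for partner RNA. In EO771 with MLg, Ldhb measured 1.90 CPM where MLg RNA alone would bring 1.86 CPM, though Ldhb is among the genes that set that estimate.

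**Figure D4:**
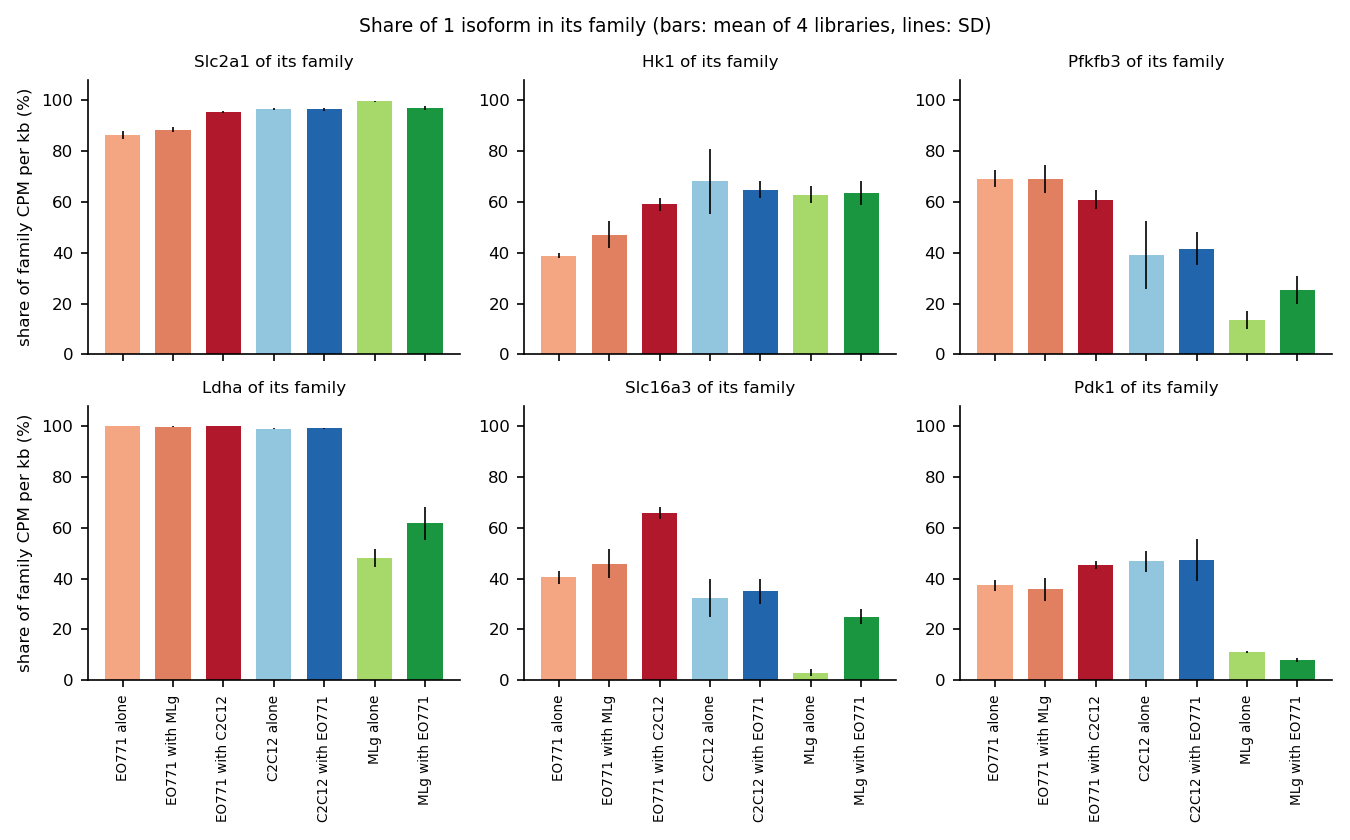
Share (y axis, percent of the family's CPM per kb of exon) of Slc2a1, Hk1, Pfkfb3, Ldha, Slc16a3 and Pdk1 in each of the 7 groups (x axis); bars are means and error bars SD over 4 libraries. In EO771, Hk1 goes from 38.8% alone to 59.0% with C2C12 and Slc16a3 from 40.4% to 65.9%. In the MLg libraries, Slc16a3 goes from 2.84% alone to 25.0% with EO771. Shares are not corrected for partner RNA. EO771 RNA alone would bring 36.7 CPM of Slc16a3 into MLg with EO771, against a measured difference of 30.7 CPM.

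Of the 5 scarce members called higher in EO771 with C2C12, Ldhb, Pdk2, Pdk4 and Pgam2 stood at 5.44, 44.3, 47.2 and 12.4 CPM in C2C12 alone, and Slc2a4 at 0.304 CPM. Pdk2 measured 0.117, 0, 0 and 0.112 CPM in EO771 alone and 0.253, 0.760, 1.24 and 0.757 CPM in EO771 with C2C12. With MLg, Pdk2 stood at 0.331, 0.120, 0.327 and 0.760 CPM. Pdk4 encodes the fasting-induced kinase of muscle. Pdk4 measured 0.0587, 0, 0 and 0 CPM in EO771 alone and 0.422, 0.362, 0.760 and 0.874 CPM in EO771 with C2C12. With MLg, Pdk4 stood at 1.51, 1.96, 0.817 and 2.47 CPM. Ldhb encodes the heart-type lactate dehydrogenase subunit. Ldhb measured 0, 0, 0 and 0 CPM in EO771 alone and 0, 0.145, 0.276 and 0.175 CPM in EO771 with C2C12. With MLg, Ldhb stood at 1.49, 1.32, 1.85 and 2.94 CPM. Ldhb was at 0 in all 4 libraries of EO771 alone and above the level of 3 counts in each library with MLg, at least 22.7-fold higher, but not in each library with C2C12. Pgam2 encodes the muscle phosphoglycerate mutase. Pgam2 measured 0.323, 0.564, 0.428 and 0.421 CPM in EO771 alone and 0.675, 1.45, 2.76 and 0.699 CPM in EO771 with C2C12. With MLg, Pgam2 stood at 0.683, 0.361, 0.381 and 0.882 CPM. Slc2a4 encodes the insulin-regulated transporter GLUT4. Slc2a4 measured 0.117, 0.257, 0.0571 and 0.0561 CPM in EO771 alone and 0.295, 0.652, 0.345 and 1.86 CPM in EO771 with C2C12. With MLg, Slc2a4 stood at 0.0414, 0.181, 0.163 and 0.539 CPM. For Pdk2, Pdk4 and Ldhb the groups with either host lay at or above EO771 alone. For Pgam2 and Slc2a4 the group with C2C12 lay above EO771 alone, and the group with MLg overlapped it. Apart from Ldhb, the 2 co-cultured groups overlapped in each of these members. The adjusted p against EO771 alone was 0.00207 for Pdk2, 6.56e-05 for Pdk4, 0.00785 for Ldhb, 0.0147 for Pgam2 and 0.0132 for Slc2a4. The call of Slc2a4 was lost without EO771 with C2C12 R3-1 (adjusted p = 0.108) and that of Pgam2 without R6-1 (adjusted p = 0.107).

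The CPM that partner RNA alone would bring was computed for each member as the partner's share times its level in the co-cultured partner. For Pdk4 in EO771 with C2C12 it was 0.370 CPM at the share from partner-specific genes and 3.63 CPM at the myotube-marker share, against a measured difference of 0.590 CPM. Pdk4 is itself among the 252 partner-specific genes that set the first share. For Pdk2 partner RNA would bring 0.347 and 3.41 CPM against 0.696 CPM. For the muscle enolase Eno3, which rose from 12.1 to 16.9 CPM, it would bring 1.69 and 16.6 CPM against 4.84 CPM. The call of Eno3 (adjusted p = 0.0491) was lost without EO771 alone R3-1, R3-2 or R5-1, or EO771 with C2C12 R5-2 or R6-1 (adjusted p = 0.0713 to 0.246). Slc2a1 gained 337 CPM where partner RNA would bring 1.44 or 14.1 CPM, and Tpi1 gained 1605 CPM where it would bring 7.57 or 74.2 CPM. Pkm gained 914 CPM where it would bring 37.2 or 365 CPM, and Pfkm gained 16.5 CPM where it would bring 1.34 or 13.2 CPM. With the partner's counts subtracted, 22 members were called higher and 2 lower of 34 tested. Ldhb, Pdk2 and Pdk4 then fell below the count filter and were not tested. At the myotube-marker share 20 were higher and 3 lower, again of 34 tested, against 37 tested in the main fit. At this share Eno3 and Pgam2 changed sign, 2 others lost their call, Pfkm among them, and 1 member newly passed.

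On MLg fibroblasts, few of these genes were called in EO771 cells. The members made up 1.51% of counts (1.29% to 1.72%) in EO771 with MLg, a range that spans that of EO771 alone. Of 37 tested, 4 were called higher (Hk1, Ldhb, Pdk2 and Pdk4) and 0 lower by edgeR, with 7 higher and 0 lower at an unadjusted p under 0.05, and DESeq2 called 4 higher and 0 lower, with 9 and 0 unadjusted. Over all genes 5.99% were called higher and 3.6% lower, and the median log2 fold change of the members was 0.077. Both EO771 comparisons use the same 4 libraries of EO771 alone. Hk1 rose from 198 ± 12.0 to 255 ± 15.3 CPM, 1.29-fold, with no overlap (log2 fold change 0.37 ± 0.098, adjusted p = 0.0188). This call of Hk1 was lost without EO771 alone R3-1 (adjusted p = 0.0603), EO771 alone R6-2 (adjusted p = 0.0541) or EO771 with MLg R6-2 (adjusted p = 0.0516). The other 3 were scarce, and partner RNA alone would bring 1.86 CPM of Ldhb (measured mean 1.90), 1.84 CPM of Pdk4 (measured 1.69) and 0.414 CPM of Pdk2 (measured 0.384). Ldhb and Pdk4 are themselves among the 241 partner-specific genes that set the share, so their values are not independent of it. The call of Pdk2 was also lost without EO771 alone R3-2 or R5-1, or R6-1, R6-2 or R7-1 of EO771 with MLg (adjusted p = 0.0562 to 0.142). With the partner's counts subtracted, Hk1 alone was called (log2 fold change 0.40, adjusted p = 0.022) of 34 members tested. Ldhb, Pdk2 and Pdk4 then fell below the count filter and were not tested.

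Slc2a1, Ldha, Slc16a3, Pdk1 and Pgm1, which rose with C2C12, were not called with MLg. The 95% interval of the log2 fold change against EO771 alone was -0.001 to 0.46 for Slc2a1, -0.32 to 0.21 for Ldha, 0.04 to 0.62 for Slc16a3, -0.34 to 0.12 for Pdk1 and -0.14 to 0.34 for Pgm1. The libraries with MLg also differed among themselves: R5-1 and R7-1 were lower than R6-1 and R6-2 for Ldha (1353 and 1439 against 2006 and 2036 CPM) and Pdk1 (51.0 and 49.6 against 70.8 and 68.3 CPM). With only the R6 libraries of that group kept, a choice made after these values were seen, 6 members were called higher: Pgk1, Tpi1 and Pgam1 joined, and Pdk2 no longer passed.

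The 2 co-cultured EO771 groups were compared directly. Of 37 members, 21 were higher and 2 lower with C2C12 than with MLg, and 14 were not called (all genes: 15.0% higher and 12.7% lower); the median log2 difference was 0.63. All 3 phosphofructokinase subunits, all 3 genes of the hexokinase and isomerase steps and 7 of 12 from aldolase to pyruvate kinase were higher with C2C12. Without the even-count libraries 13 members were higher, and Hk2, Gpi1, Pfkm, Eno1, Eno3, Pkm, Pdk3 and Gbe1 no longer passed (adjusted p = 0.0501 to 0.358). At the myotube-marker share Pfkm (log2 fold change 0.32, adjusted p = 0.206) and Hk2 (adjusted p = 0.0511) lost their calls. Pgm1 differed most among the abundant members (3.63-fold, log2 fold change 1.86 ± 0.12, adjusted p = 3.6e-09). Gys1 (3.01-fold, log2 fold change 1.59 ± 0.087, adjusted p = 1.05e-09) came next. Pdk1 (2.49-fold, log2 fold change 1.32 ± 0.11, adjusted p = 1.9e-07) was followed by Slc2a1 (2.42-fold, log2 fold change 1.28 ± 0.11, adjusted p = 2.27e-07). Hk2 was 1.32-fold higher with C2C12 than with MLg (log2 fold change 0.40 ± 0.14, adjusted p = 0.0424), while its libraries overlapped. That call was lost without any 1 library of EO771 with C2C12, or without R6-1, R6-2 or R7-1 of EO771 with MLg (adjusted p = 0.0623 to 0.123). The 2 lower members were Ldhb and Pdk4, which MLg expresses at 122 and 121 CPM in co-culture. Neither was tested after partner subtraction. The call of Pdk4 was lost without R5-1 of EO771 with C2C12 (adjusted p = 0.0503) or R7-1 of EO771 with MLg (adjusted p = 0.0561).

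In the myotubes, 1 member was called higher after co-culture with EO771 in the main fit, and 0 with the R number as a block. Of 38 members tested, Slc16a1 was called higher and 0 lower by edgeR (all genes: 2.58% higher and 0.0962% lower). There were 3 higher and 0 lower at an unadjusted p under 0.05, and DESeq2 called 2 higher, Slc16a1 and Slc16a3, and 0 lower. Slc16a1 measured 119, 108, 102 and 115 CPM in C2C12 alone and 154, 173, 173 and 235 CPM in C2C12 with EO771. The groups did not overlap, and the rise was 1.60-fold (log2 fold change 0.68 ± 0.13, adjusted p = 0.0221). With the shared R number as a block, the log2 fold change was 0.54 and the adjusted p 0.0751. This block pairs the R3 and R5 cultures only. C2C12 alone R2-1 and C2C12 with EO771 R6-1 have no same-numbered counterpart and add nothing to the blocked difference. The unblocked call was also lost when any 1 of 5 libraries was left out, namely C2C12 alone R2-1, R3-1, R3-2 or R5-1, or C2C12 with EO771 R5-2 (adjusted p = 0.0525 to 0.0885). Slc16a3 measured 71.0, 46.1, 45.1 and 102 CPM alone and 86.1, 147, 118 and 126 CPM with EO771, with overlapping groups. It was not called (log2 fold change 0.81 ± 0.25, adjusted p = 0.194) but passed without C2C12 alone R5-1 (adjusted p = 0.0261). EO771 RNA in these libraries would by itself bring 17.6 CPM of Slc16a1 and 41.1 CPM of Slc16a3. With partner counts subtracted, no member was called by edgeR, with 2 higher and 0 lower at an unadjusted p under 0.05.

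The spread among myotube cultures was wide for several members. Hk2 measured 181, 48.3, 46.8 and 173 CPM in C2C12 alone R2-1, R3-1, R3-2 and R5-1, and Gys1 141, 53.3, 56.0 and 143 CPM. Slc2a1 measured 152, 75.9, 72.9 and 167 CPM in the same 4 libraries. For all 3 genes the R3 pair stood at less than the R2 and R5 libraries, as did the summed myotube markers; their part in the values of these members was not tested. Without the C2C12 libraries labelled R3, 0 members were called by edgeR, with 2 higher and 4 lower at an unadjusted p under 0.05.

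In MLg fibroblasts, 13 of 36 members tested rose with EO771, 2 fell and 21 were not called (all genes: 9.89% higher and 4.81% lower), with a median log2 fold change of 0.16. Slc2a3 measured 0.143, 0.136, 0.115 and 0 CPM in MLg alone and 5.09, 3.23, 4.37 and 4.84 CPM in MLg with EO771. Slc16a3 measured 1.15, 2.13, 1.47 and 1.18 CPM alone and 46.2, 26.3, 32.7 and 23.7 CPM with EO771. Both were close to absent in MLg alone and clear of it in each co-cultured library, Slc16a3 22.1-fold higher (log2 fold change 4.46 ± 0.25, adjusted p = 3.64e-07). The test for Slc2a3 gave a log2 fold change of 5.44 ± 0.45 and an adjusted p of 6.75e-06. Gapdh rose 1.78-fold from 415 ± 38.8 to 725 ± 162 CPM (log2 fold change 0.83 ± 0.13, adjusted p = 0.00135). Slc16a1 rose 1.74-fold from 45.8 to 78.9 CPM (log2 fold change 0.80 ± 0.17, adjusted p = 0.00863). Ldha rose 1.64-fold from 262 to 421 CPM (log2 fold change 0.71 ± 0.12, adjusted p = 0.00156). The libraries of these 3 genes did not overlap between groups. Pfkfb3 (log2 fold change 0.66), Eno1 (0.60), Pfkl (0.45), Slc2a1 (0.45), Pfkp (0.35), Tpi1 (0.34), Pkm (0.29) and Pgam1 (0.25) rose less. Each of these 8 calls was lost without at least 1 of the libraries R3-2, R5-2, R6-1 and R6-2 of MLg alone and R5-1, R6-1 and R6-2 of MLg with EO771 (adjusted p = 0.0504 to 0.131). Without both even-count libraries, Slc2a3, Slc16a3, Gapdh and Ldha were called higher and Pfkfb2 lower, and no other member passed.

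The measured rises are set beside what EO771 RNA alone would bring into the fibroblast libraries. EO771 RNA would bring 4.41 CPM of Slc2a3 against a measured difference of 4.28 CPM, 36.7 CPM of Slc16a3 against 30.7 CPM, and 396 CPM of Gapdh against 309.7 CPM. The library with the largest partner share, R5-1 at 12.7% against 5.80% to 8.59% in the other 3, was also the highest for Slc2a3, Slc16a3, Gapdh, Ldha and Slc16a1. With partner counts subtracted, no member of 35 tested was called higher by edgeR, with 3 higher and 4 lower at an unadjusted p under 0.05, and Eno1, Gapdh, Pfkp and Pgam1 turned negative. The 2 members that fell kept their call after subtraction. Pfkfb2 measured 22.9, 21.2, 25.2 and 23.5 CPM alone and 14.0, 12.8, 15.6 and 16.4 CPM with EO771. It fell (log2 fold change -0.64 ± 0.098, adjusted p = 0.000931; after subtraction log2 fold change -0.52, adjusted p = 0.012). Pdk1 measured 47.9, 46.9, 49.0 and 52.0 CPM alone and 38.8, 33.5, 30.8 and 42.1 CPM with EO771. Pdk1 fell likewise (log2 fold change -0.41 ± 0.094, adjusted p = 0.0124; after subtraction -0.47, adjusted p = 0.0181). Every co-cultured library was below every library of MLg alone for both genes.

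**Figure D5:**
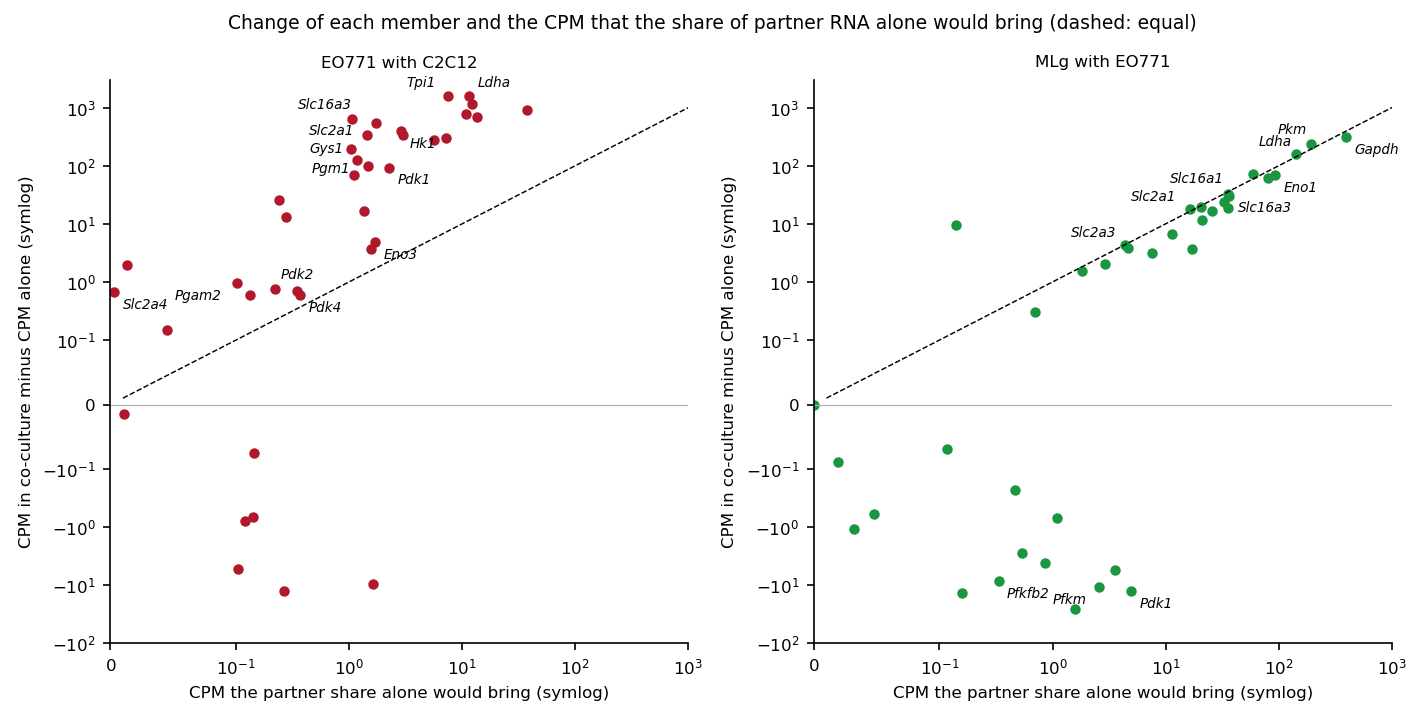
Measured CPM difference between co-culture and the same line alone (y axis) against the CPM that the partner's share of RNA would bring (x axis), per member, for EO771 with C2C12 (left) and MLg with EO771 (right); both axes are linear near 0 and logarithmic beyond, and the dashed line marks equality. In EO771 with C2C12, Slc2a1 and Tpi1 lie far above the line, while in MLg with EO771, Slc2a3, Slc16a3 and Gapdh lie close to it.

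Between the hosts, the response of C2C12 minus that of MLg was called higher for 0 and lower for 2 of 38 members by edgeR (all genes: 0.778% higher and 1.06% lower). There were 2 higher and 5 lower at an unadjusted p under 0.05, and DESeq2 called 0 higher and 3 lower, adding Eno1. The 2 were Slc2a3 (log2 fold change -4.87 ± 0.56, adjusted p = 6.55e-05) and Slc16a3 (log2 fold change -3.63 ± 0.37, adjusted p = 1.84e-05), which MLg alone nearly lacked and C2C12 alone expressed at 7.75 and 66.0 CPM. With partner counts subtracted, 0 were called by edgeR in either direction, with 2 higher and 1 lower at an unadjusted p under 0.05.

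The lines alone differed in most members. C2C12 alone exceeded MLg alone in 30 of 38, was lower in 4 and not called in 4 (all genes: 31.0% higher and 30.9% lower), with a median log2 difference of 1.83. All 5 glycogen genes, 10 of 12 genes from aldolase to pyruvate kinase and all 6 genes of the hexokinase, isomerase and phosphofructokinase steps were higher in the myotubes. Eno1 was at 1667 ± 285 CPM in C2C12 and 140.3 ± 4.57 CPM in MLg (log2 fold change 3.73 ± 0.11, adjusted p = 9.27e-12). Slc16a3 was at 66.0 ± 26.8 against 1.48 ± 0.456 CPM (log2 fold change 5.62 ± 0.29, adjusted p = 2.08e-09). Ldhb went the other way, at 5.44 ± 1.10 CPM in C2C12 and 135 ± 18.0 CPM in MLg (log2 fold change -4.48 ± 0.15, adjusted p = 1.61e-09). Ldha took 48.1% ± 3.53 of the lactate dehydrogenase signal per kb in MLg but 99.0% ± 0.131 in C2C12.

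EO771 alone exceeded C2C12 alone in 10 members and was lower in 23 of 38 (all genes: 36.2% higher and 42.0% lower; median -0.84). It exceeded MLg alone in 25 and was lower in 10 (all genes: 36.8% and 40.8%; median 1.06). These comparisons use the same EO771 libraries. EO771 was the highest of the 3 lines alone for Gapdh (5189 CPM, against 1236 in C2C12 and 415 in MLg), Slc16a1 (433, 111 and 45.8 CPM) and Slc16a3 (355, 66.0 and 1.48 CPM). The same held for Ldha (1785, 1121 and 262 CPM), Slc2a3 (55.6, 7.75 and 0.0987 CPM) and Pfkfb3 (59.7, 26.5 and 7.14 CPM), each called against both other lines. C2C12 was above EO771 for most genes from aldolase to pyruvate kinase, such as Pgk1 (790.0 against 265 CPM) and Pkm (3874 against 2628 CPM), with 10 of 12 called lower in EO771. Ldhb, at 0 in EO771 alone, was at least 65.0-fold higher in C2C12 alone and at least 1614-fold higher in MLg alone, computed against the CPM of 3 counts per library. Slc2a1 (169 CPM in EO771, 117 CPM in C2C12) and Gys1 (96.4 and 98.2 CPM) were not called between EO771 and C2C12 alone.

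Neighbouring routes were described with lists chosen apart from the members, for EO771 with C2C12 against EO771 alone, where 18.7% of all genes were called higher and 14.3% lower. These lists too were chosen with earlier results of these data known. The CPM that C2C12 RNA alone would bring was not computed for their genes. Of 15 tested other isoforms of the transporters and enzymes, 7 were higher and 4 lower, and those named next were scarce. Slc2a8, encoding an intracellular glucose transporter, rose from 0.942 to 3.71 CPM (log2 fold change 1.89 ± 0.37, adjusted p = 0.000704). Eno1b, a near copy of Eno1, rose from 1.02 to 3.41 CPM (log2 fold change 1.67 ± 0.33, adjusted p = 0.000745), and Slc16a8, encoding a further monocarboxylate transporter, fell from 0.376 to 0.0746 CPM (log2 fold change -2.39 ± 0.77, adjusted p = 0.0236). Pyruvate import and the pyruvate dehydrogenase complex had 2 higher and 2 lower of 10, and the pentose phosphate pathway 0 higher and 1 lower of 9 by edgeR, with 1 at an unadjusted p under 0.05. Of 14 other glycogen genes, 3 were higher and 1 lower, with Epm2a, which encodes the glycogen phosphatase laforin, going from 0.794 to 2.92 CPM (log2 fold change 1.79 ± 0.34, adjusted p = 0.000576). Of 15 genes of gluconeogenesis and cytosolic shuttles, 3 were higher and 1 lower. Slc37a4, the glucose-6-phosphate carrier of the endoplasmic reticulum, rose from 6.76 to 18.0 CPM (log2 fold change 1.34 ± 0.14, adjusted p = 1.62e-06). Pcx, encoding pyruvate carboxylase, fell from 96.6 to 45.6 CPM (log2 fold change -1.16 ± 0.11, adjusted p = 2.98e-07). Of 17 regulators of glucose uptake and glycolysis, 6 were higher and 3 lower; Txnip, which limits glucose uptake, rose from 3.32 to 28.1 CPM (log2 fold change 3.00 ± 0.17, adjusted p = 1.01e-09).

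A reference set of 14 hypoxia-response genes outside the members was read in the same libraries. This set was chosen with earlier results of these data known, so its counts are a description and not an independent test. All 14 rose in EO771 with C2C12, with a median log2 fold change of 1.52 (all genes: 18.7% higher and 14.3% lower). Bnip3, encoding a mitophagy receptor, rose from 3.42 to 33.3 CPM (log2 fold change 3.21 ± 0.21, adjusted p = 3.59e-09). Egln3, encoding an oxygen-sensing prolyl hydroxylase, rose from 17.5 to 160.0 CPM (log2 fold change 3.11 ± 0.17, adjusted p = 6.87e-10). Ankrd37 rose from 0.660 to 4.75 CPM, and Adm, encoding adrenomedullin, from 16.5 to 97.2 CPM (log2 fold change 2.48 ± 0.28, adjusted p = 2.98e-06). Of the 14, 13 were called lower in EO771 alone than in C2C12 alone, so C2C12 RNA would add to these values. How much it would bring was computed for the members only. In EO771 with MLg, edgeR called 0 of the 14 higher and 3 lower (Vegfa, Ddit4 and Bhlhe40, named after their values were seen), with 5 of 14 at an unadjusted p under 0.05. Over all genes, 5.99% were called higher and 3.6% lower with MLg.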

How the data were processed

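The authors deposited 1 table of raw read counts per gene for each of the 28 libraries (Ensembl identifiers, no normalization). Per the labels' protocols, total RNA was extracted with RNeasy and libraries were made with a TruSeq Stranded mRNA kit; of tools, the submitters' processing notes list DESeq2, Subread 2.0.1 with featureCounts, STAR 2.7.10a and fastp, with no roles. All 55536 identifiers matched GENCODE M21 (GRCm38), which gave symbols, positions and exon lengths. Each of the 9 comparisons was fitted on all genes passing edgeR's filterByExpr (minimum count 10, total 15) with TMM scaling and the quasi-likelihood F test of edgeR 4.0.16 in R 4.3.3; p-values were adjusted by Benjamini-Hochberg and called under 0.05. The 12 EO771 libraries shared 1 fit, C2C12 and MLg each had 8 libraries, the difference of responses 16 and the lines alone 12. CPM used library totals; SE was the log2 fold change divided by the root of F. DESeq2 1.42.0, no filter on low counts, narrower and wider fits, halved even counts, subtraction of partner counts, a replicate block and exclusion of single libraries were alternatives; those without the even-count libraries, without the C2C12 R3 libraries and without R5-1 and R7-1 of EO771 with MLg were added after the data were seen. Same-numbered C2C12 cultures deviated together (correlations 0.379 to 0.698 over 4 pairs), so the R number pairs them, a pairing that rests on the data and not on the labels. No replicate pair agreed within sampling noise (over 42 pairs, chi-square divided by its degrees of freedom was at least 9.42). The fits were run on simulated counts with known changes, drawn with the same spread for all genes. The wide spread of several members among the myotube cultures was not imitated, so these runs do not show how the fits perform there. For log2 fold changes, 95% intervals used the fit's degrees of freedom. Members with an absolute log2 fold change of at least 1 and a call in a co-culture comparison are given in every library where the result turns on them, others by group. The members and lists were chosen with earlier results of these data known. Binomial intervals and the 3-count floor cover counting error only.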

Additional observations from a re-analysis of the deposited data

Results flagged for a closer look

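Of 241 combinations of member and group, 16 held a library whose gap to its nearest neighbour was over Dixon's 95% limit on the CPM scale (17 on the log2 scale, 15 on both); chance alone gives about 5%, and none of these was tested further. In EO771 with C2C12, R3-1 stood apart at 45.5 CPM for Slc2a3 and at 31.6 CPM for Eno2, and R5-2 at 457 CPM for Slc16a1. In EO771 with MLg, R5-1 stood apart at 280.2 CPM for Hk2 and 28.2 CPM for Pfkm. In EO771 alone these were R3-1 at 3.64 CPM for Pfkfb2 and R3-2 at 8.93 CPM for Pfkfb4, and in C2C12 alone R5-1 at 24.7 CPM for Aldoc.

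MLg alone R3-2 stood apart in 5 members: 81.2 CPM for Pfkp, 4.49 CPM for Pfkfb3, 13.5 CPM for Pfkfb4, 1.32 CPM for Pygm and 42.6 CPM for Pgm1. In MLg with EO771, R5-1, the library with the largest share of EO771 RNA, stood apart at 51.6 CPM for Pgam1 and 99.9 CPM for Slc16a1, and R6-1 at 32.7 CPM for Pdk2.

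The responses of the hosts to EO771 differed by test in 2 members: the log2 response of C2C12 minus that of MLg was -4.87 for Slc2a3 and -3.63 for Slc16a3. With EO771 counts subtracted from the host libraries, neither was called.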

How the results depend on the processing

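For EO771 with C2C12 against EO771 alone, members called higher went from 26 to 17 without the even-count libraries and stayed between 20 and 26 under the other alternatives run; members called lower went from 2 to 1 with no filter or with even counts halved, and to 0 with all 28 libraries in the fit or without the even-count libraries. At the myotube-marker share Pgam2 (-0.085) and Eno3 (-1.95) turned negative, and Eno3 also against EO771 with MLg (-1.74). For EO771 with MLg, 1 member remained called after partner subtraction, where Ldhb, Pdk2 and Pdk4 were not tested. Between the co-cultured EO771 groups, 13 were higher and 1 lower without the even-count libraries, and 1 was lower at the myotube-marker share or without EO771 with MLg R5-1 and R7-1. For C2C12 with EO771, the count called higher was 2 with DESeq2, 3 with all 28 libraries, and 0 with the block, with subtraction or without the R3 libraries. For MLg with EO771, subtraction gave 0 higher, a median of 0.017, and negative Eno1 (-0.10), Gapdh (-0.16), Pfkp (-0.20) and Pgam1 (-0.0033); all 28 libraries gave 6 higher and 1 lower, and exclusion of the even-count libraries 4 and 1. For the difference of responses, subtraction gave 0 lower and a positive Slc16a3 (0.065), and the median was -0.35 without the R3 libraries. The median of EO771 against C2C12 alone was -0.91 with no filter and -0.70 with the block. Apart from subtraction, which removes counts by construction, and fits with fewer or more libraries, the cause was not tested.

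Leaving out each library in turn, members called higher ranged from 23 to 25 and lower from 0 to 2 for EO771 with C2C12, from 2 to 4 higher for EO771 with MLg, from 20 to 22 higher and 1 to 2 lower between the co-cultured groups, from 0 to 1 higher for C2C12, from 5 to 14 higher for MLg, and from 0 to 1 higher for the difference of responses; the median of EO771 against MLg alone ranged from 0.778 to 1.06. With the R number as a replicate block, members called higher and lower were 26 and 2 for EO771 with C2C12. They were 3 and 0 for EO771 with MLg and 21 and 3 between those groups. The block gave 14 and 2 for MLg and 0 and 2 for the difference of responses. For C2C12 against MLg alone the numbers were 28 and 5. EO771 alone gave 11 and 23 against C2C12 alone, and 25 and 10 against MLg alone. Outside C2C12, deviations of same-numbered samples correlated weakly. The correlations were 0.0556 to 0.133 for EO771 with C2C12 against alone and 0.05 to 0.298 for EO771 with MLg against alone. Between the co-cultured EO771 groups they were 0.0256 to 0.179, and in MLg -0.289 to 0.205. Samples with different numbers reached 0.115, 0.187, 0.222 and 0.294 in these comparisons. Depth limits the scarce members: 3 counts correspond to 0.0311 to 0.109 CPM, depending on the library.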
